A study of Danio rerio with 6 samples.

Results

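The 100 DNA replication and cell cycle genes described here are those of the 10232 genes in the deposited table whose symbols belong to fixed families: the Mcm, Orc, GINS, Rfc, Cdc, Cdk, Cdk inhibitor, Cenp, Bub, Aurora and Polo families, cyclins A, B, D and E, and single genes such as pcna, mki67 and top2a. Symbols of the cdc42 family, a GTPase of the cytoskeleton, were left out. The rule used symbols only and no measured value. The table holds gene expression in GFP-positive cells sorted from the dissected caudal haematopoietic tissue (CHT) of zebrafish embryos at 36 hpf, labelled as endothelial cells (ECs), with around 5000 cells in each sample. The 3 control libraries came from flk1:GFP;UAS:DN-bmal1a embryos and the 3 DN-bmal1a libraries from flk1:GFP;flk1:GAL4;UAS:DN-bmal1a embryos. All groups therefore carried the GFP reporter and the UAS transgene, and only the second carried the flk1-driven GAL4 that switches on a dominant-negative form of the clock activator Bmal1a where the flk1 (kdrl) promoter is active. Each library is a pool of dissected embryos, and the labels do not name separate clutches, so that p-values measure the spread between these pools. The columns were assigned to the groups by sample title, and the library names in the sample descriptions conflict with that assignment, so that every direction given here rests on the titles.

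A dividing cell first loads the Mcm helicase onto replication origins with the origin recognition complex and Cdc6, then fires the origins with Cdc7 and Cyclin-Cdk activity, and copies the DNA with polymerases held by the PCNA clamp. Mitosis follows when Cyclin B-Cdk1 is released from inhibition by Wee1, and chromosomes attach to the spindle through kinetochores built on Cenp proteins. Cdk inhibitors of the Cip/Kip and Ink4 families hold these kinases back. The clock touches this machinery at known points, since Wee1 is transcribed under BMAL1 and CLOCK in mouse liver. The study asked how the endothelial clock bears on blood stem and progenitor cells in the CHT, and the comparison below asks whether the division genes of the sorted cells differed between the genotypes.

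Values are reads per 1000000 of an effective library size (CPM). They are not corrected for gene length, so that levels are compared between libraries and not between genes. The libraries held between 26161915 and 55004237 reads, and 1 read was worth between 0.0178 and 0.0367 CPM. DN-bmal1a replicate 2 had the fewest reads and 1760 genes without any read, against 34 to 865 in the other 5 libraries. Of the 16 endothelial markers looked for, 12 were listed, with reads in every library, and their summed level was 8991 to 11132 CPM in the controls and 5087 to 6900 CPM in DN-bmal1a. The 6 listed myeloid markers, led by lyz and cebpb, summed to 7021 to 11833 CPM and 6526 to 10265 CPM, and the macrophage gene mfap4 among them had 0 to 3.21 CPM. The 8 listed blood progenitor markers summed to 2874 to 4406 CPM and 3291 to 4454 CPM, and the 10 erythroid markers to 677 to 2289 CPM and 2899 to 4384 CPM. The 6 listed epidermal markers summed to 3604 to 3694 CPM and 2535 to 3234 CPM. The 10 muscle markers summed to 1205.5 to 4211 CPM and 808 to 3809 CPM, and the 10 neural markers to 89.9 to 114 CPM and 45.6 to 63.9 CPM. Transcripts of blood, epidermis and muscle were thus present in every library beside those of ECs. The endothelial, epidermal and neural sums were lower and the erythroid sum higher in every DN-bmal1a library than in any control. All 12 endothelial, 5 of the 6 epidermal, 7 of the 10 neural and 3 of the 10 erythroid markers had a log2 fold change below 0. The part of this difference in the division gene values was not tested, and ECs below stands for the sorted cells as labelled. bmal1a, the gene behind the transgene, is listed under its older symbol arntl1a, whose reads may come from gene or transgene, and had 20.6, 16.8 and 3.28 CPM in the control libraries and 42.9, 22.1 and 55.5 CPM in the DN-bmal1a libraries (log2 fold change 1.71, adjusted p = 0.402 by limma). In bulk RNA, fewer dividing cells and less RNA per dividing cell cannot be told apart.

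Division genes other than ccnd2b had reads in both groups, and no difference between the groups passed the test. None of the 100 members passed the limma threshold, a fold change of 2 or more in either direction with an adjusted p under 0.05, which 0.00977% of all genes passed. On the recovered reads, edgeR's quasi-likelihood test called 0 members beside 0% of all genes, and DESeq2 called 0 members beside 1.83% of all genes. At an unadjusted limma p under 0.05 there were 6 members, 4 lower and 2 higher in DN-bmal1a, against 11.2% of all genes (8.12% lower and 3.1% higher). The same count was 6 with the quasi-likelihood test, beside 7.86% of all genes, and 7 with DESeq2, beside 10% of all genes. The 3 DN-bmal1a libraries lay apart from the 3 controls in 19 members, 13 lower and 6 higher, where the share over all genes was 17.7% (10.7% lower and 7% higher). With 100 members, a count reads directly as a percentage, so that the 6 members lay below the share of all genes and the 19 near it. The median log2 fold change of the members was 0.07, beside -0.13 for all genes. On log2(CPM + 1), 91 of the 100 members changed by less than 2-fold, beside 80.3% of all genes. The added 1 shrinks the change of genes at a few CPM. The 91 therefore include genes such as cdk6, whose DN-bmal1a mean was 3.86% of the control mean. The median of all genes moved to 0.04 after quantile normalization and that of the members to 0.14. The higher median of the members did not hold among genes with a mean of at least 50 CPM. There it was -0.04 for 41 members and -0.02 for 3185 genes of the table. All 41 of these members changed by less than 2-fold, beside 95.3% of the genes at that level.

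**Figure D1:**
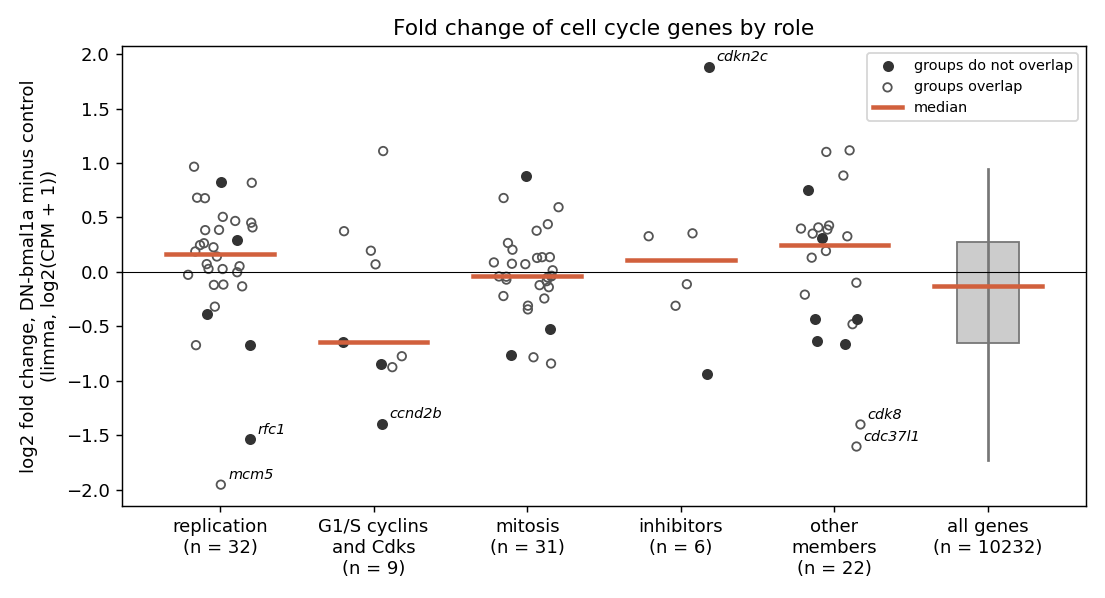
Log2 fold change of each member in DN-bmal1a against control (limma on log2(CPM + 1), y axis), grouped by role. Filled points are members whose groups do not overlap, bars are medians, and the grey box shows the quartiles of all genes with a line from the 5th to the 95th percentile; the medians lie at 0.17 for replication and -0.04 for mitosis, beside -0.13 for all genes.

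The members fell into 32 replication genes, 9 cyclins and Cdks of G1 and S phase, 31 mitosis genes, 6 Cdk inhibitors and 22 other members, many of which share a name with the cycle but act mainly in transcription, splicing or protein turnover. The median log2 fold change was 0.17 for replication, -0.64 for the G1 and S cyclins and Cdks, -0.04 for mitosis, 0.11 for the inhibitors and 0.25 for the other members. The median for mitosis was 0.02 with the libraries rescaled to the same sum and 0.05 after quantile normalization, so that its sign depended on the scaling. With a mean of at least 50 CPM, the medians were 0.14 for 9 replication genes and -0.06 for 18 mitosis genes. They were 0.13 for 2 G1 and S genes and -0.31 for 3 inhibitors, beside -0.02 for all genes at that level. The sign for the inhibitors thus depended on the genes with fewer reads. On log2(CPM + 1), the 95% interval lay within a 2-fold change in either direction for 34 of the 100 members, beside 21.6% of all genes. With a mean of at least 50 CPM it did so for 32 of the 41 members, beside 62.4% of all genes above that threshold. The median level was 189 CPM for these 41 members and 118 CPM for all genes above the threshold. The part of this difference in the shares was not tested.

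The log2 fold changes of the helicase subunits mcm2 to mcm7 ran from -1.95 to 0.47, and the 95% interval lay within a 2-fold change for 3 of the 6. pcna, the sliding clamp that holds the polymerase on DNA, had 337, 379 and 350 CPM in control replicates 1, 2 and 3 and 329, 445 and 452 CPM in DN-bmal1a replicates 1, 2 and 3. The groups overlapped, with a log2 fold change of 0.19 (95% interval -0.21 to 0.59). A difference of 2-fold in either direction lies outside this interval. mcm7, a subunit of the replicative helicase, had 519, 447 and 504 CPM in control ECs against 547, 420 and 683 CPM in DN-bmal1a ECs. For mcm2, another subunit, the values were 139, 105 and 66.9 CPM against 112, 135 and 173 CPM. Both genes overlapped, with log2 fold changes of 0.14 (-0.30 to 0.58) and 0.47 (-0.20 to 1.14). mcm6 was lower in every DN-bmal1a library, at 53.9, 83.3 and 81.3 CPM against 90.5, 85.95 and 105 CPM, a log2 fold change of -0.38 with a standard error of 0.26 (adjusted p = 0.607 by limma). Its lowest control and its highest DN-bmal1a library lay close together.

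One helicase subunit stood apart from the rest of its complex in a single library. mcm5 had 34.8, 35.7 and 50.03 CPM in control ECs against 48.3, 0.183 and 18.8 CPM in DN-bmal1a ECs, where the value of replicate 2 came from 5 reads. The other subunits mcm2, mcm3, mcm4, mcm6 and mcm7 had between 41.7 and 420 CPM in that library. The log2 fold change of mcm5, -1.95 (standard error 1.14, limma adjusted p = 0.555), was the lowest of all members and became -0.38 without DN-bmal1a replicate 2. Large gaps of this kind were not rare in the table. At least 100 reads in 1 DN-bmal1a library and none in another were found in 10 members and in 17.4% of all genes, and between controls in 6 members and 7.1% of all genes. The members include cdc6, the origin licensing factor, with 6.25, 0 and 10.2 CPM in DN-bmal1a. tyms, encoding thymidylate synthase, is not among the 10 but had a single read in DN-bmal1a replicate 1, with values of 0.0232, 14.4 and 9.94 CPM.

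Several genes of origin recognition and origin firing scattered between replicates. orc1 had 37.3, 35.8 and 23.4 CPM in control ECs against 21.0, 20.9 and 55.0 CPM in DN-bmal1a ECs, and orc4 had 15.2, 8.94 and 10.8 CPM against 8.48, 6.53 and 5.67 CPM. Only orc4 of the 6 listed orc genes had groups that did not overlap, with a log2 fold change of -0.67 with a standard error of 0.62 (adjusted p = 0.714 by limma). All 4 GINS genes, whose products join Cdc45 and the Mcm ring in the active helicase, had a log2 fold change above 0, from 0.26 for gins2 to 0.83 for gins3. gins3 had 13.02, 8.57 and 13.9 CPM in control ECs against 16.6, 30.2 and 19.3 CPM in DN-bmal1a ECs, without overlap (limma adjusted p = 0.587). cdc45 had 29.9, 23.0 and 26.2 CPM against 31.9, 52.2 and 28.5 CPM, where the lowest DN-bmal1a value lay above 2 of the controls and below the third. gins1, orc5, mcm3l and mcm6l each had 2 libraries without reads, 1 in each group, and control replicate 1 was among them for all of these. mcm3l and mcm6l are close relatives of mcm3 and mcm6, and how reads shared between such copies were counted was not tested.

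The clamp loader had log2 fold changes in both directions among its subunits, none of which passed the test. rfc1, its large subunit, had 40.3, 19.8 and 22.2 CPM in control ECs against 8.96, 2.97 and 19.6 CPM in DN-bmal1a ECs. Its log2 fold change of -1.54, with a standard error of 0.69, did not pass the test (adjusted p = 0.451 by limma). The groups did not overlap, but the highest DN-bmal1a library all but reached the lowest control, and the log2 fold change was -0.92 without DN-bmal1a replicate 2. The small subunits rfc2, rfc3, rfc4 and rfc5 had log2 fold changes from 0.03 to 0.39. rfc5 was higher in every DN-bmal1a library, at 76.5, 71.5 and 81.2 CPM against 64.1, 70.3 and 53.3 CPM (log2 fold change 0.29, limma adjusted p = 0.687). Ribonucleotide reductase, which makes the DNA precursors, overlapped in both of its S phase subunits. rrm1 had 291, 302 and 502 CPM in control ECs against 327, 278 and 379 CPM in DN-bmal1a ECs, and rrm2 had 252, 210 and 181 CPM against 166, 240 and 267 CPM. The 95% intervals were -0.65 to 0.41 for rrm1 and -0.46 to 0.56 for rrm2, again inside a 2-fold change.

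**Figure D2:**
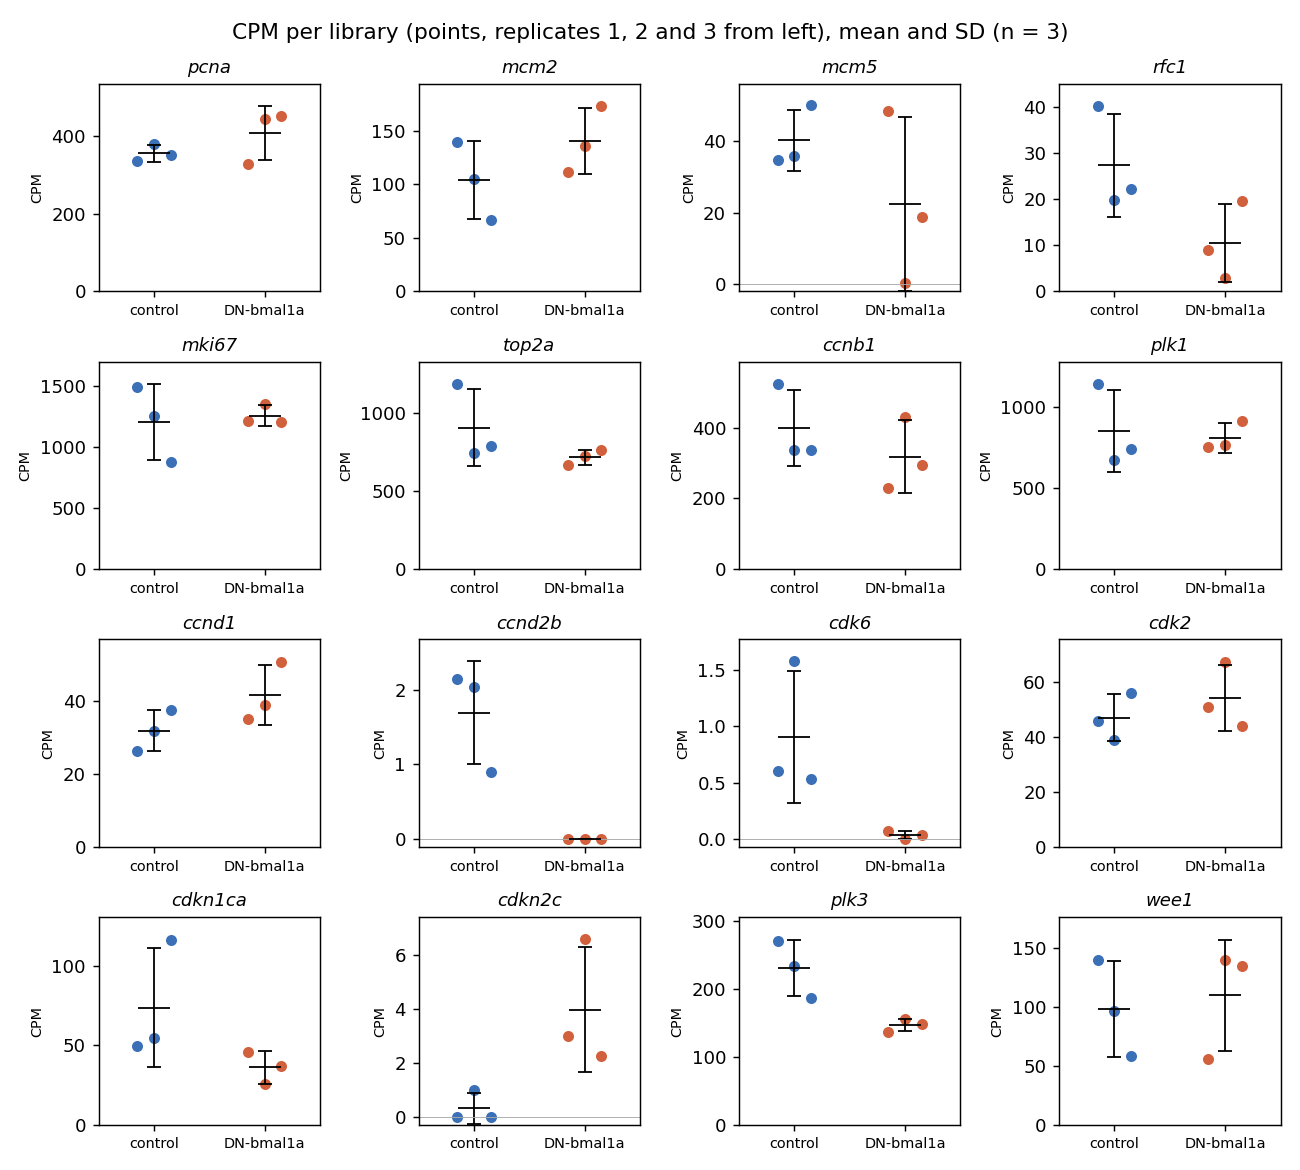
CPM of 16 members in each library (y axis; points are replicates 1, 2 and 3 from left to right, with the mean and SD of 3 libraries). Most panels overlap, the DN-bmal1a points of ccnd2b lie at 0, and mcm5 has 1 DN-bmal1a library at 0.183 CPM while its others lie at 48.3 and 18.8 CPM.

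The cyclins and Cdks of G1 and S phase had the lowest median of the roles, and its sign changed once genes with few reads were left out. ccnd2b, one of the copies of cyclin D2, had 89, 76 and 45 reads in the controls, or 2.15, 2.03 and 0.895 CPM, and no read in any DN-bmal1a library. Against a floor of 3 reads in each DN-bmal1a library it was at least 21.8-fold lower, a bound that covers the counting of reads and not the sampling of molecules before amplification. The same pattern, reads in all controls and in no DN-bmal1a library, was found in 105 genes, or 1.03% of the table. No gene is listed with reads in fewer than 3 libraries. A gene without reads in DN-bmal1a is therefore listed only if every control has reads. The lack of overlap in ccnd2b was thus fixed by the listing, and its fold bound describes the reads and is no test. On log2(CPM + 1), where the added 1 sets the size, the change in ccnd2b was -1.39 with a standard error of 0.53 (adjusted p = 0.38 by limma). Its paralogue ccnd2a was also lower in every DN-bmal1a library, at 21.5, 15.4 and 13.1 CPM against 24.4, 24.0 and 30.0 CPM (log2 fold change -0.64, limma adjusted p = 0.62). cdk6, a partner kinase of the D-type cyclins, had 25, 59 and 27 reads in control ECs against 3, 0 and 2 reads in DN-bmal1a ECs. cdk4, the other partner, had 155, 33 and 26 reads against 74, 0 and 0 reads, and overlapped. ccna1, the cyclin A of germ cells, also overlapped, with a log2 fold change of -0.87 from means of 1.75 and 0.425 CPM.

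The other 4 cyclins and Cdks of this role had log2 fold changes above 0 and overlapping groups. ccnd1, the cyclin D that growth signals induce, had 26.2, 31.8 and 37.5 CPM in control ECs against 35.1, 39.0 and 50.7 CPM in DN-bmal1a ECs (log2 fold change 0.37, 95% interval -0.39 to 1.14). ccne2, which drives entry into S phase with Cdk2, had 2.54, 17.05 and 20.4 CPM against 22.2, 16.9 and 32.1 CPM. Its log2 fold change of 1.11 became 0.28 without control replicate 1, the library with the low value. cdk2 had 45.8, 39.1 and 56.1 CPM against 50.9, 67.5 and 44.2 CPM, and ccna2, the cyclin A of dividing cells, had 212, 178 and 210 CPM against 178, 207 and 248 CPM. Their 95% intervals were -0.48 to 0.87 and -0.36 to 0.50. With genes under a mean of 1 CPM left out, the median of this role was 0.07 instead of -0.64, and without control replicate 1 it was -0.28.

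Mitosis genes had no member at an unadjusted limma p under 0.05 and none with a 2-fold change on log2(CPM + 1). The added 1 matters for cdc14aa, which had 0, 3.88 and 2.98 CPM in control ECs against 0, 0.220 and 1.78 CPM in DN-bmal1a ECs. Its groups overlapped, and its log2 fold change was -0.84 on this scale and -1.77 with edgeR. mki67, the proliferation marker Ki-67, had 1497, 1254 and 880 CPM in control ECs against 1212, 1358 and 1205 CPM in DN-bmal1a ECs, a log2 fold change of 0.09 (95% interval -0.37 to 0.54). top2a, which untangles sister chromatids, had 1184, 738 and 788 CPM against 662, 719.5 and 759 CPM, or -0.31 (-0.75 to 0.13). In both genes the largest value was that of control replicate 1. cdk1, the mitotic kinase, had 525, 310 and 316 CPM against 249, 394 and 330 CPM. ccnb1, its cyclin partner, had 525, 337 and 337 CPM against 230, 431 and 294 CPM. The log2 fold changes of this pair were -0.22 (-0.78 to 0.34) and -0.34 (-0.94 to 0.25). plk1, the Polo kinase of mitotic entry, had 1145, 675 and 742 CPM against 752, 764 and 917 CPM, and aurka, a spindle pole kinase, had 494, 302 and 288 CPM against 267, 528 and 274 CPM. Apart from cdc14aa, control replicate 1 was the highest control for every one of these genes. Among the DN-bmal1a libraries replicate 2 was the highest for all of them but cdc14aa, top2a and plk1.

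**Figure D3:**
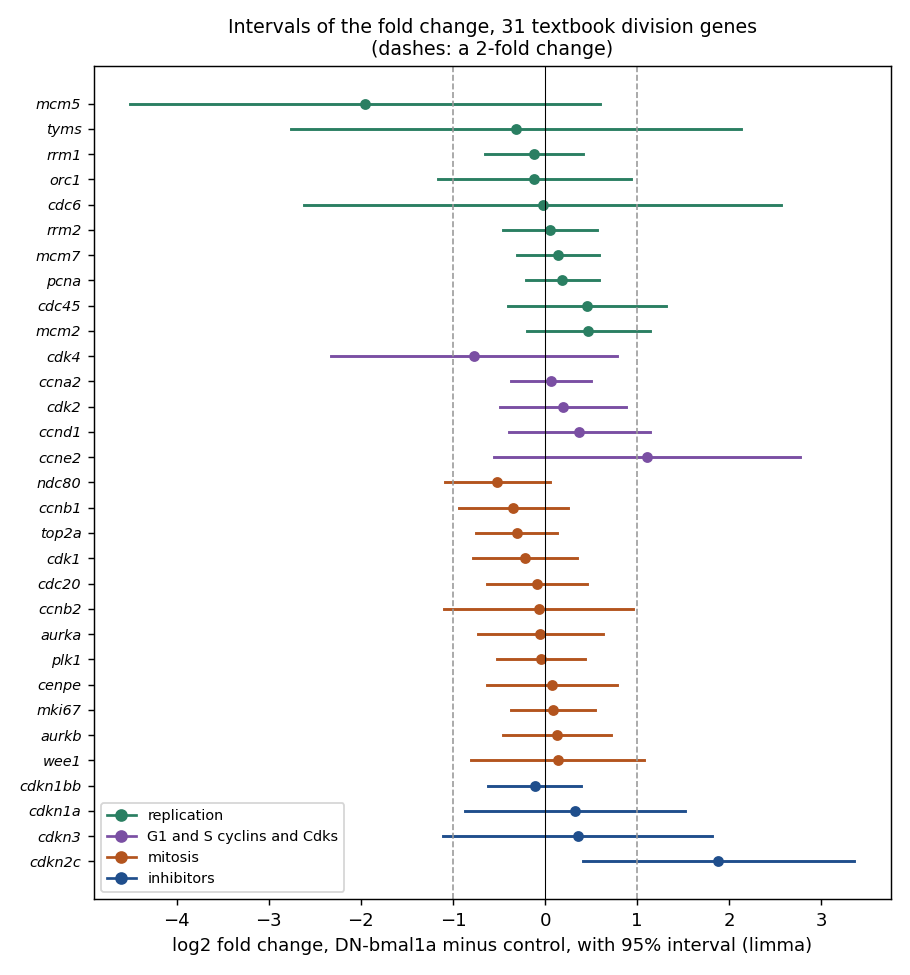
Log2 fold change (points) and its 95% interval from limma (lines) for 31 textbook division genes, coloured by role, with dashed lines at a 2-fold change. The interval lies within the dashed lines for 16 of the 31 genes, and cdkn2c is the one whose interval leaves out 0 (0.41 to 3.36).

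wee1, the kinase that holds Cdk1 inactive and the clock-linked member named above, had 140, 96.2 and 58.0 CPM in control ECs against 55.4, 140 and 134 CPM in DN-bmal1a ECs. The groups covered the same range, and the log2 fold change was 0.14 (95% interval -0.80 to 1.07), which does not leave out a 2-fold rise. Its opponent cdc25b, a phosphatase that activates Cdk1, had 367, 319 and 342 CPM against 222, 444 and 373 CPM (log2 fold change -0.04, -0.59 to 0.51). Of the kinetochore genes, ndc80, which binds spindle microtubules, was lower in every DN-bmal1a library at 49.4, 63.6 and 53.8 CPM against 88.2, 85.4 and 67.2 CPM. Its log2 fold change was -0.52 with a standard error of 0.25 (adjusted p = 0.49 by limma). nuf2, whose product pairs with Ndc80, had 98.6, 99.7 and 83.9 CPM against 77.5, 171 and 138 CPM, a log2 fold change of 0.38 with overlap. The 8 listed Cenp genes had a median of 0.24, 7 of them above 0. cenpl was higher in every DN-bmal1a library, at 23.3, 30.5 and 49.4 CPM against 16.4, 20.6 and 15.4 CPM (log2 fold change 0.88, limma adjusted p = 0.495), and cenpa, the histone of the centromere, had 23.5, 40.3 and 27.9 CPM against 32.8, 14.8 and 12.3 CPM. cdc14ab, a phosphatase gene of the cdc14 family, was lower without overlap, at 7.76, 8.36 and 5.21 CPM against 12.99, 16.5 and 9.19 CPM (limma adjusted p = 0.678).

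The larger pattern in the mitosis genes lay between libraries of the same group. Their summed level was 8862, 5989 and 5751 CPM in control replicates 1, 2 and 3 and 5531, 7514 and 6454 CPM in DN-bmal1a replicates 1, 2 and 3. Control replicate 1 was the highest control in 23 of the 31 genes, or 74.2%, where it was so in 35.6% of all genes. DN-bmal1a replicate 2 was the highest of its group in 21 of the 31, or 67.7%, beside 33.7% of all genes. The median deviation from each gene's mean over the 6 libraries was 0.40, -0.08 and -0.12 on the log2 scale in the control libraries, and -0.26, 0.25 and 0.00 in those of DN-bmal1a. Replication genes did not share this order, with sums of 2168, 2109 and 2319 CPM in control ECs against 2159, 2201 and 2771 CPM in DN-bmal1a ECs, the highest in DN-bmal1a replicate 3.

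**Figure D4:**
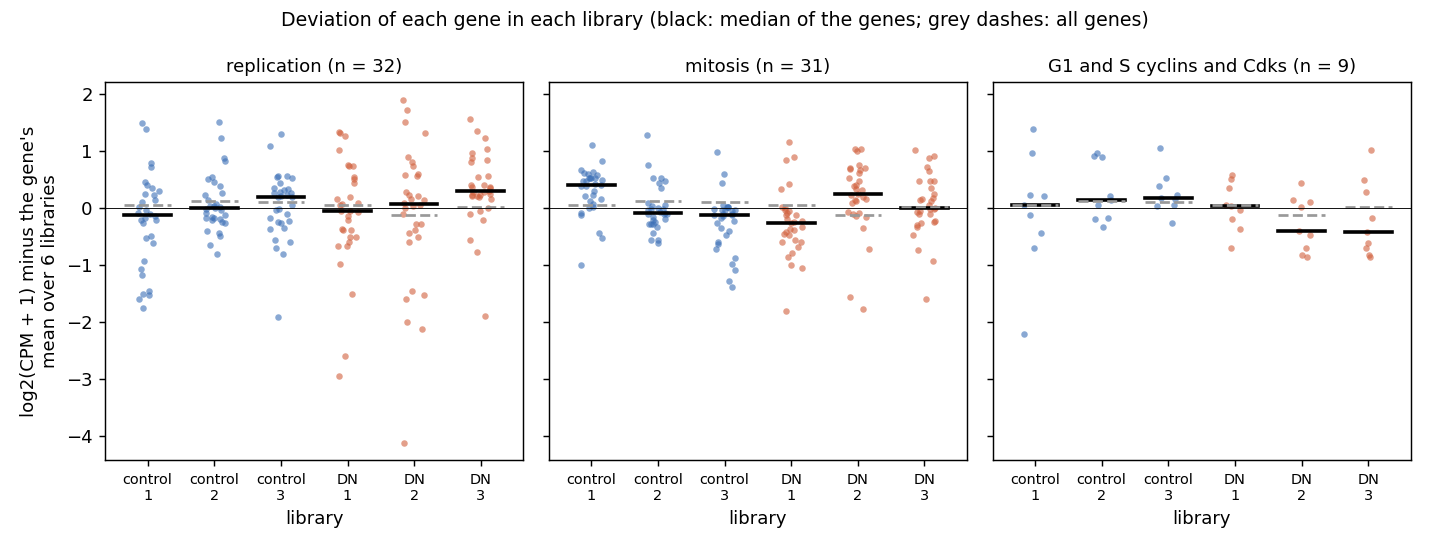
Deviation of each gene from its own mean over the 6 libraries (y axis, log2(CPM + 1)) by library (x axis), for replication, mitosis and G1 and S genes. Black bars are the medians of the genes shown and grey dashes those of all genes; the mitosis genes stand high in control replicate 1 (median 0.40) and DN-bmal1a replicate 2 (0.25).

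Mitotic genes outside the rule had the same high control library. The mitotic machinery list, with kinesins, condensin and spindle checkpoint genes such as kif11, smc2 and ttk where listed, had 35 of its 43 genes in the table. Control replicate 1 was the highest control in 30 of the 35, or 85.7%, and DN-bmal1a replicate 2 the highest of its group in 21, with 12 highest in replicate 3. The summed myeloid markers were 11833, 9977 and 7021 CPM in control ECs against 6526, 10265 and 7326 CPM in DN-bmal1a ECs. Their order within each group was that of the summed 31 mitosis members, and not that of the 35 genes outside the rule. The blood progenitor markers, at 4406, 3574 and 2874 CPM and 3291, 4454 and 4436 CPM, had the order of the mitosis members too. The erythroid markers, at 2289, 677 and 1555 CPM and 2899, 4355 and 4384 CPM, did not, and the endothelial markers, at 8991, 10750 and 11132 CPM and 6900, 5087 and 5701 CPM, had the reverse order in both groups. The neural markers, at 114, 89.9 and 97.4 CPM and 45.6, 63.9 and 47.6 CPM, also peaked in control replicate 1 and DN-bmal1a replicate 2. They had the full order of the mitosis members in DN-bmal1a only. The muscle, epidermal and pigment markers had it in neither group. An order of 3 libraries is easily shared, and the part of blood or other cells in the mitosis values was not tested. Without control replicate 1 the median log2 fold change of the mitosis genes was 0.19, and without DN-bmal1a replicate 2 it was -0.15, so that each of these libraries moved it by more than its distance from 0.

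The Cdk inhibitors held 2 of the 6 members with an unadjusted p under 0.05, in opposite directions, and 6 genes are too few to set against the 11.2% of all genes. cdkn1ca, encoding a p57 inhibitor of the Cip/Kip family, had 49.4, 54.9 and 117 CPM in control ECs against 45.7, 25.4 and 37.1 CPM in DN-bmal1a ECs. Mean levels were 73.6 ± 37.3 CPM (SD, n = 3) and 36.1 ± 10.2 CPM (SD, n = 3), which is 49.0% of the level in control ECs. This is a log2 fold change of -0.94 with a standard error of 0.40 (adjusted p = 0.427 by limma). Without control replicate 3, the high library, it was -0.56. cdkn2c, encoding the p18 inhibitor of Cdk4 and Cdk6, had 0, 37 and 0 reads in control ECs against 130, 180 and 128 reads in DN-bmal1a ECs, or 0, 0.99 and 0 CPM against 3.01, 6.60 and 2.28 CPM. It had the highest log2 fold change of all members, 1.88 with a standard error of 0.66 (adjusted p = 0.357 by limma), on a scale where the added 1 sets part of the size. The unadjusted p of cdkn2c was 0.19 with the quasi-likelihood test and 0.13 with DESeq2.

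The other inhibitors overlapped. cdkn1a, the p21 gene that p53 induces, had 14.8, 19.1 and 11.3 CPM in control ECs against 29.6, 17.9 and 12.4 CPM in DN-bmal1a ECs (log2 fold change 0.33, 95% interval -0.87 to 1.52). The p27 copies cdkn1ba and cdkn1bb had log2 fold changes of -0.31 and -0.11. cdkn1bb had 215, 136 and 137 CPM against 147, 150 and 143 CPM, with an interval of -0.62 to 0.39. cdkn3, a phosphatase that acts on Cdks, had 31.7, 10.55 and 13.4 CPM against 9.03, 36.3 and 29.3 CPM, so that its highest values were in control replicate 1 and DN-bmal1a replicate 2, as in the mitosis genes.

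Of the other 22 members, 3 had an unadjusted p under 0.05, near the 11.2% of all genes. plk3, a stress-responsive Polo-like kinase, had 271, 234 and 187 CPM in control ECs against 137, 156 and 148 CPM in DN-bmal1a ECs, the lowest p of all members. Its mean was 231 ± 41.9 CPM (SD, n = 3) against 147 ± 9.47 CPM (SD, n = 3), or 63.6% of the control mean, with a log2 fold change of -0.63 and a standard error of 0.20 (adjusted p = 0.309 by limma). An exact two-sided permutation test gave p = 0.1, the smallest that 3 libraries against 3 allow, and it gives the same for every member named here whose groups lie apart. Its relative plk2b overlapped, with a log2 fold change of -0.10. cdc34b, a ubiquitin-conjugating enzyme that works with SCF ligases, had 256, 232 and 205 CPM against 188, 143 and 182 CPM, or -0.44 on the log2 scale (adjusted p = 0.439 by limma). Its paralogue cdc34a was lower by a like amount, at 33.9, 40.1 and 35.3 CPM against 59.5, 46.6 and 70.0 CPM, or -0.66 (adjusted p = 0.458 by limma). cdc40, a splicing factor in spite of its name, had 45.2, 61.4 and 54.7 CPM in control ECs against 73.3, 119 and 85.4 CPM in DN-bmal1a ECs, or 0.76 with a standard error of 0.28 (adjusted p = 0.365 by limma). The transcriptional kinases cdk7, cdk8 and cdk9 overlapped, and cdk8 had no read in DN-bmal1a replicate 2 against 461 and 1922 reads in the others of its group.

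Division genes that the rule does not take gave a similar picture. Of 82 listed genes of replication, the E2F and Rb pathway, mitosis and growth arrest, 0 were called by limma. At an unadjusted limma p under 0.05 there were 3, all lower in DN-bmal1a. Among all genes 11.2% were under 0.05 in either direction, 8.12% lower and 3.1% higher, so that these 3 lay below the share of lower genes. The median log2 fold change of the 82 genes was 0.03. pola1, the catalytic subunit of the polymerase that starts each strand, had 40.1, 30.7 and 46.6 CPM in control ECs against 21.4, 20.4 and 16.5 CPM in DN-bmal1a ECs, or -0.96 (limma adjusted p = 0.4). Its partner subunit pola2 was higher in every DN-bmal1a library, at 41.2, 28.9 and 40.1 CPM against 6.23, 27.9 and 21.0 CPM, or 1.17 (limma adjusted p = 0.482). The other genes under 0.05 were wdhd1, a replisome scaffold, with -2.14 and overlapping groups, and gadd45bb, a stress-induced gene, with 12.2, 34.7 and 33.8 CPM against 8.76, 0 and 5.90 CPM, or -2.64 (limma adjusted p = 0.361). The list drawn up for p53 and growth arrest, which also holds the cyclin L gene ccnl1b, had 12 listed genes with a median of -0.07. For 10 of the 12 the 95% interval lay within a 2-fold change.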

How the data were processed

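Bulk RNA-seq of 6 libraries (3 control, 3 DN-bmal1a) was analysed. Per the labels and the paper, the authors mapped reads with STAR 2.7.0f, counted them per gene with HTSeq 0.9.1 and normalized them with edgeR; the paper names danRer10 and the labels GRCz11, so no coordinates are given. Columns were matched to samples by title. The GEO descriptions conflict with this, since they give the control samples the library names sample1 to sample3, which are the names of the DN-bmal1a columns. The titles were followed because the table also has columns named control1 to control3, and under the other reading every sign would be uncertain. The deposited signal is reads per 1000000 of an effective library size (CPM). The columns sum to between 959211 and 1038170, and dividing each by its library's step gave whole reads for 100% of the values above 0 (tolerance 0.001 reads). Their counting error was small beside the spread between replicates. The test was chosen when the values were taken as CPM: limma 3.58.1 in R 4.3.3 (eBayes with a trend) on log2(CPM + 1) over all 10232 genes, Benjamini-Hochberg adjusted, called at an adjusted p under 0.05 with a change of 1 or more on the log2 scale. The low-count filter and edgeR test of the study are not given in the sources used here. No gene is listed with reads in fewer than 3 libraries. Scripts were tested on data simulated with less spread between replicates than here. The common dispersion, a measure of that spread, was 0.572 in the controls and 1.4 in DN-bmal1a. The simulation therefore does not show how many true changes the tests would find in these data.

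Roles were assigned by symbol, and 99 members matched a RefSeq symbol and 1 a synonym. Members, lists and tests were chosen with earlier results of these data known. Named members had an unadjusted p under 0.05, groups without overlap (values for the 12 largest changes), a place on a fixed list of 34 division genes (31 listed) or no reads in at least 2 libraries; others, including plk2b, cdk7 to cdk9, cdc25b, nuf2, cenpa, cdkn1ba, mcm6 and rfc5, were added after their values were seen. Alternatives were other pseudocounts (0.1, 10), filters, scalings, eBayes without a trend, array weights, a replicate block, edgeR 4.0.16, DESeq2 1.42.0 and each library left out. No sequence was printed.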

Additional observations from a re-analysis of the deposited data

How the results depend on the processing

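No member was called under any alternative run. The count of members at an unadjusted p under 0.05, 6, lay between 4 and 8 in the other settings and between 4 and 9 with 1 library left out. Among all genes, limma called 1, against 7 with eBayes without a trend, 22 with array weights, 187 with DESeq2, 0 with the edgeR test (804 genes under 0.05 before adjustment) and 0 to 1 with 1 library left out. The replicate block gave 1 gene and 0 members (5 members had an unadjusted p under 0.05). The labels give same-numbered libraries a common number and no other link. The correlations of their deviations were -0.0735, -0.0114 and 0.00247, and those of differently numbered libraries ran from -0.0715 to 0.0822. These values cannot show whether libraries shared a clutch or a day.

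The median of the G1 and S cyclins and Cdks, -0.64, was -0.12 with a pseudocount of 10, 0.070 with a mean of at least 1 CPM, 0.13 with at least 1 CPM in 3 libraries, where fewer of these genes were tested, and -0.037 after quantile normalization. With 1 library left out it ranged from -0.83 to -0.28, that of replication from 0.05 to 0.25, of mitosis from -0.18 to 0.19 and of the inhibitors from -0.09 to 0.22.

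Of 51 named members, 31 kept their sign in every setting. Those that turned had small changes against their error, and the cause was not tested. With libraries rescaled, aurka was 0.012, cdc6 0.0013 and plk1 0.021. After quantile normalization cdc6 was 0.31, mcm6l 0.12 and tyms 0.0071. With a pseudocount of 10 cdc6 was 0.0048 and tyms 0.039. With array weights cdc20 was 0.10, cdc6 0.33, cdkn1bb 0.022, cenpe -0.038, orc1 0.0025, plk1 0.19 and rrm1 0.058. With edgeR ccnb2 was 0.094, orc1 0.0071 and tyms 0.24, and with DESeq2 aurka was 0.0021, ccnb2 0.12, cdc6 0.0075, orc1 0.029 and tyms 0.27. Leaving out 1 library gave -0.37 to 0.20 for aurka, -0.12 to 0.40 for aurkb, -0.054 to 0.19 for ccna2, -0.61 to 0.25 for ccnb2, -0.24 to 0.21 for cdc20, -0.99 to 1.03 for cdc6, -0.37 to 0.027 for cdk1, -0.22 to 0.11 for cdkn1bb, -0.011 to 0.94 for cdkn3, -0.14 to 0.21 for cenpe, -0.93 to 0.60 for mcm6l, -0.027 to 0.32 for mcm7, -0.13 to 0.26 for mki67, -0.57 to 0.11 for orc1, -0.16 to 1.43 for orc5, -0.19 to 0.19 for plk1, -0.26 to 0.13 for rrm1, -0.087 to 0.25 for rrm2, -1.05 to 0.90 for tyms and -0.19 to 0.57 for wee1.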
